A study of Homo sapiens with 6 samples.

Results

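The augmin complex is encoded by 8 genes, HAUS1 to HAUS8, and all 8 were found by gene symbol among the 23228 gene names of the deposited table. RNA-seq was performed on SaOS-2 cells, a human osteosarcoma line described by the study as null for RB and p53, that carry a doxycycline-inducible p21 vector. All 6 libraries came from this line grown in medium with serum, 3 without doxycycline (p21 OFF) and 3 after 24 h with 1 μg/ml of it (p21 ON). Cells with doxycycline but no vector were not analysed here, and what the drug and what p21 did cannot be told apart. The study's RNA-seq methods call the replicates biological. How the replicate cultures were kept apart is not given in the sources used here. The p-values therefore measure the spread between these libraries, which may in part be technical.

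Augmin binds to the side of an existing spindle microtubule and brings the γ-tubulin ring complex there, so that a new microtubule grows as a branch with the same polarity. The octamer is built from a pair of tetramers. HAUS2, HAUS6, HAUS7 and HAUS8 form the tetramer that contacts the microtubule lattice, and HAUS1, HAUS3, HAUS4 and HAUS5 form the other. The adaptor NEDD1 links augmin to the γ-tubulin ring, and TPX2, PLK1 and Aurora A act with it on the spindle.

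The table holds read counts divided by each library's DESeq2 size factor, here called normalized counts. The libraries held 12795490 to 21975045 reads on genes with p21 OFF and 12918390 to 16630552 with p21 ON, and an augmin gene was covered by 145 to 1111 reads in a library. CDKN1A, the gene of p21, had 1187 to 1355 normalized counts in the p21 OFF libraries and 40470 to 46739 in the p21 ON libraries, where reads of the vector and of the cells' own gene are counted together. Among osteoblast markers, RUNX2, SP7, ALPL and COL1A1 were all well expressed in both groups (the lowest of these, RUNX2, at 3412 and 3403 normalized counts on average), while BGLAP was at 0 in every library and COL1A2 and SPP1 averaged at most 3.67. The osteoblast marker IBSP was lower with p21 ON (129 ± 8.66 against 99.0 ± 3.20 normalized counts, SD, n = 3 each, limma log2 fold change -0.38, adjusted p = 0.0264), and PTH1R was at 293 ± 40.2 and 242 ± 46.5 (limma adjusted p = 0.118). Markers of other cell types summed to 345 to 419 normalized counts with p21 OFF and 339 to 382 with p21 ON, most of it the epithelial marker EPCAM at means of 330 and 313. The epithelial KRT5 averaged 22.3 and 27.4, the endothelial PECAM1 12.6 and 13.5 and the leukocyte PTPRC 5.91 and 7.42 normalized counts with p21 OFF and ON, while CD3E and CDH5 were at or near 0. p21 OFF replicate 1, the shallowest library, gave the highest p21 OFF value for 7 of the 8 augmin genes, and for 41.4% of all genes tested. The spread within pairs of libraries was also measured over genes, as a mean chi-square per gene. It was 8.5 and 9.26 for the pairs with p21 OFF replicate 1 and 3.03 for the other p21 OFF pair. The p21 ON pairs had 2.71 to 3.98, and the cause of the difference was not tested. The median of the 8 augmin genes and the value of HAUS3 are also given without p21 OFF replicate 1.

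Levels of 4 augmin genes were reduced after p21 induction and no augmin gene was called higher. HAUS8 fell most, to 52.3% of its p21 OFF level, followed by HAUS6 (66.3%), HAUS7 (68.5%) and HAUS3 (75.5%). HAUS1, HAUS2, HAUS4 and HAUS5 did not pass the test. Among all 13255 genes that averaged 10 or more normalized counts, limma at an adjusted p-value under 0.05 called 23.2% in either direction. It called 12.7% lower and 10.5% higher. Of the 8 augmin genes it called 4 lower and 0 higher. Fits by edgeR and DESeq2 to the recovered reads gave the same augmin counts, as did limma at an unadjusted p under 0.05. At that unadjusted threshold, limma had 2527 of all tested genes lower and 2354 higher. In the microtubule-binding tetramer 3 of 4 genes were lower, and in the other tetramer 1 of 4. The median log2 fold change of the 8 genes was -0.23, where all tested genes had a median of 0.0056, and it was -0.13 without p21 OFF replicate 1 and -0.32 without p21 OFF replicate 2. In bulk RNA a smaller share of cells with a transcript and less of it per cell cannot be told apart.

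**Figure D1:**
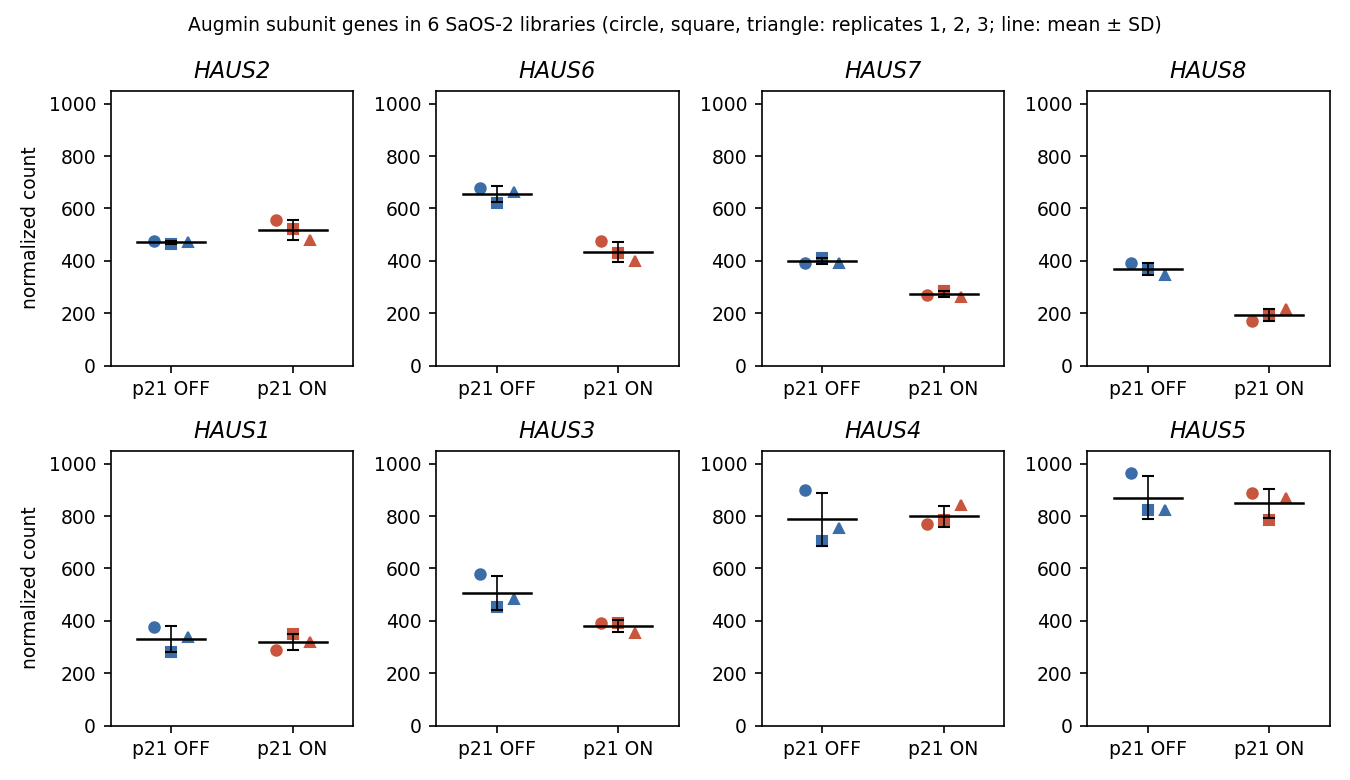
Normalized counts of the 8 augmin genes (y axis) in the 3 p21 OFF (blue) and 3 p21 ON (red) libraries, with symbols for replicates and black lines for the mean ± SD; the upper row holds the microtubule-binding tetramer and the lower row the other. The p21 ON points of HAUS8, HAUS6, HAUS7 and HAUS3 lie below all their p21 OFF points, those of HAUS2 lie above, and the other genes overlap.

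Promoter sequences were examined because repression of cell cycle genes by DREAM is known to run through E2F sites and CHR elements close to the start site. RefSeq windows of 300 bases, from 250 before to 50 after a start, were found for all 8 genes, with 2 starts each for HAUS7 and HAUS8, and each matched its GRCh37 chromosome exactly at a single place. On both strands, the E2F site was searched as TTTCCCGC, TTTCGCGC, TTTGCCGC or TTTGGCGC, and the CHR as TTTGAA, with TTCGAA also taken. The E2F letters were found in HAUS7 and HAUS8, in 2 of the 10 augmin windows, and in 3.31% of all 35116 windows. The CHR letters were found in HAUS8, in 1 of the 10 augmin windows, and in 16.4% of all windows. In HAUS8 the CHR match began 14 bases upstream of the start at position 17186262 (chr19:17186260-17186287, minus strand) and the E2F match 22 bases downstream of it (chr19:17186222-17186251, minus strand). In HAUS7 the E2F match began 10 bases downstream of the start at position 152736034 (chrX:152736006-152736035, minus strand). These stretches are shown for the genes that fell, with the matched letters in capitals.
HAUS8 CHR: gcgggtccggcTTTGAAaagccggcggg
HAUS8 E2F: tgaggtggaagGCGGGAAAatggcggattc
HAUS7 E2F: cgcggctcggaGCGCGAAAcatggcggggc

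A short E2F site without the first T, which each full E2F site also holds, was searched as TTCCCGC, with TTCGCGC also taken, with TTGCCGC also taken and with TTGGCGC also taken. Matches were found in 6 of the 8 genes, including HAUS1, HAUS2, HAUS4 and HAUS5, against 15.3% of all genes with a window. By window, these were 7 of the 10 augmin windows, against 13% of all windows. The windows of the 2 HAUS8 starts overlap, so the 10 windows are not all separate stretches. All windows include those of genes not expressed here, and whether the shares differ was not tested. HAUS6 and HAUS3, which fell, held none of these letters. The CCAAT box, as CCAAT, was found in HAUS7 alone, in 2 of the 10 augmin windows, against 34.6% of all windows. The 100 bases upstream of the start of HAUS6 (chr9:19102903-19103002, minus strand), a gene that fell, and of HAUS5 (chr19:36103537-36103636, plus strand), which was not called and has a short E2F match in capitals, are given for contrast.
HAUS6 upstream: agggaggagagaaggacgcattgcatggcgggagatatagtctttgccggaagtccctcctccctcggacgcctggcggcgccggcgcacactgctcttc
HAUS5 upstream: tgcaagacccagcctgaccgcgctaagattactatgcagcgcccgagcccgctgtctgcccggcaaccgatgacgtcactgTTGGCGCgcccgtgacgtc

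A match of letters describes the sequence and is not a measured binding site. HAUS1, HAUS2, HAUS4, HAUS5 and HAUS8 are on the study's low-stringency list of G1/S genes and HAUS3, HAUS6 and HAUS7 on none of its cell cycle lists. Of the 5 listed genes 1 was lower after p21 induction, and of the 3 unlisted genes 3 were lower. Among all tested genes 12.7% were lower, and a link between the lists and the fall was not tested.

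HAUS8 (also known as HICE1) carries a microtubule-binding region of augmin and is a substrate of mitotic kinases. The gene lies on chromosome 19 of GRCh37, the build of hg19, at chr19:17160539-17186435 on the minus strand, and its canonical transcript has 11 exons. With p21 OFF its libraries held 390.6, 367.1 and 347.4 normalized counts, and with p21 ON 168.8, 193.7 and 216.7. Every p21 ON library lay below every p21 OFF library. The means were 368 ± 21.6 and 193 ± 23.9 (SD, n = 3 each), and limma put the log2 fold change at -0.93 with a 95% interval of -1.15 to -0.72 and a standard error of 0.10 (adjusted p = 2.31e-06). Among all tested genes 1.31% had a lower log2 fold change. The E2F and CHR letters shown for HAUS8 both lay at the start at position 17186262. Its other start, at position 17186343, held neither. Whether these letters bear on the fall was not tested.

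HAUS6 (FAM29A) is the largest subunit, and its C-terminal part is involved in the recruitment of NEDD1. It lies at chr9:19053139-19102902 on the minus strand, with 17 exons in the canonical transcript. Its values were 678.2, 621.0 and 663.8 normalized counts with p21 OFF and 476.1, 428.9 and 398.2 with p21 ON, again without overlap, and its promoter was the one printed without a match. The means went from 654 ± 29.7 to 434 ± 39.3 (SD, n = 3 each), with a limma log2 fold change of -0.59, a standard error of 0.08 and a 95% interval of -0.76 to -0.42 (adjusted p = 4.37e-05).

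HAUS7 (UCHL5IP) lies at chrX:152713126-152760974 on the minus strand, with 10 exons in the canonical transcript. It showed the smallest spread of the genes that fell, with 393.1, 411.7 and 390.3 normalized counts in p21 OFF and 271.2, 285.1 and 261.3 in p21 ON libraries. Its means of 398 ± 11.6 and 273 ± 12.0 (SD, n = 3 each) gave, by limma, -0.55 as the log2 fold change (95% interval -0.72 to -0.37, standard error 0.08, adjusted p = 0.000134). In the GENCODE annotation 1226 of the 1306 bases of its canonical transcript are shared with exons of TREX2 on the same strand. How the counting split such reads is not given in the sources used here, and the TREX2 row held 0 to 3.12 normalized counts.

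HAUS2 (CEP27), the remaining gene of this tetramer, lies at chr15:42841026-42862192 on the plus strand. It had 477.2, 463.2 and 470.8 normalized counts with p21 OFF and 555.3, 522.7 and 478.0 with p21 ON. All p21 ON values lay above all p21 OFF values, a pattern seen in 19.1% of tested genes, and the opposite pattern, shown by the 4 genes that fell, in 21.3%. The log2 fold change of HAUS2 was 0.14 (95% interval -0.03 to 0.30, limma adjusted p = 0.213), so neither no change nor a rise to 123% of the p21 OFF level lies outside the interval. An exon of an antisense lncRNA covers 710 of its 3921 canonical bases, and no source used here says if reads were counted by strand.

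HAUS3 was the single gene of the other tetramer that was called. It lies at chr4:2229191-2243860 on the minus strand. Values were 577.7, 453.8 and 482.7 normalized counts with p21 OFF and 393.5, 391.1 and 352.5 with p21 ON, without overlap, although p21 OFF replicate 1 stood well above the other p21 OFF libraries. The means were 505 ± 64.8 and 379 ± 23.0 (SD, n = 3 each), and the limma log2 fold change was -0.41, with a 95% interval of -0.60 to -0.21 and a standard error of 0.09 (adjusted p = 0.00458). It was -0.31 when p21 OFF replicate 1 was left out (limma adjusted p = 0.00761), and with genes of low values kept in the fit HAUS3 was not called (limma adjusted p = 0.147). On the same strand its exons share 686 bases with POLN, whose row held 4.69 to 7.60 normalized counts, and 2538 canonical bases with an unnamed gene model.

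HAUS1, HAUS4 and HAUS5 overlapped between the groups. HAUS1 (CCDC5), at chr18:43684344-43708299 on the plus strand, had 378.0, 279.6 and 337.8 normalized counts with p21 OFF and 287.5, 350.9 and 319.3 with p21 ON. Its log2 fold change of -0.05 had the widest 95% interval of the 8, from -0.28 to 0.18 (limma adjusted p = 0.773). HAUS4, at chr14:23415437-23426370 on the minus strand, ranged from 705.4 to 900.5 normalized counts with p21 OFF and from 768.3 to 843.8 with p21 ON, with a log2 fold change of 0.03 (95% interval -0.15 to 0.20), and 785 of its 1586 canonical bases are shared with another gene model on the same strand. HAUS5, at chr19:36103637-36116257 on the plus strand, ranged from 821.2 to 965.8 with p21 OFF and from 785.9 to 889.4 with p21 ON, a log2 fold change of -0.03 (95% interval -0.20 to 0.13). The sign of each of these genes changed when single libraries were left out, and the intervals leave room for a fall to 82.6% of the p21 OFF level for HAUS1, 90.2% for HAUS4 and 87.1% for HAUS5. Processed pseudogenes of HAUS1, HAUS4, HAUS6 and HAUS8 are annotated, and reads shared with them may have been lost or split in the counting.

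**Figure D2:**
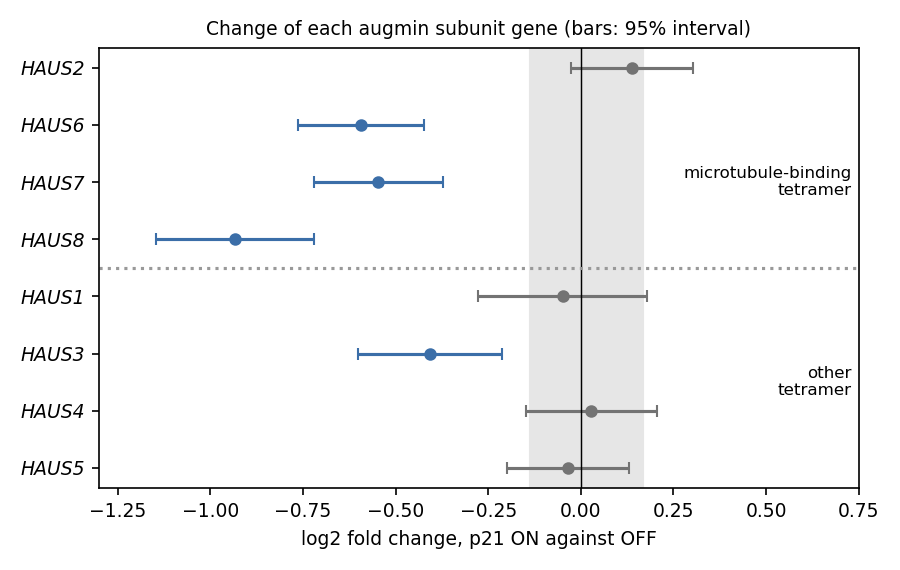
Log2 fold change of each augmin gene, p21 ON against p21 OFF (x axis; points, limma estimates; bars, 95% intervals), with called genes in blue, others in grey, zero as a vertical line and the interquartile range of all tested genes, -0.14 to 0.17, as a band. The intervals of HAUS8, HAUS6, HAUS7 and HAUS3 lie wholly below zero and left of the band, and those of the other genes cross zero.

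The make-up of the augmin transcripts is described next without any scaling between libraries. For this, each gene's log2 normalized count was set against the mean of the 8 genes in the same library, a measure in which a fall of some genes raises the others. On this log2 scale HAUS8 went from -0.49 with p21 OFF to -1.13 with p21 ON, and HAUS2 went from -0.13 to 0.30. Relative to the mean, HAUS6 and HAUS7 were lower in every p21 ON library than in every p21 OFF library. HAUS1, HAUS2, HAUS4 and HAUS5 were higher in the same comparison, and HAUS3 overlapped between the groups. Within the microtubule-binding tetramer, the ratio of HAUS8 to HAUS2 normalized counts was 0.818, 0.793 and 0.738 with p21 OFF and 0.304, 0.371 and 0.453 with p21 ON. The ratio of HAUS6 to HAUS2 went from 1.39 ± 0.04 to 0.837 ± 0.019 and that of HAUS7 to HAUS2 from 0.847 ± 0.036 to 0.527 ± 0.033 (SD, n = 3 each). The pair HAUS3 and HAUS5 of the other tetramer had a ratio of 0.579 ± 0.024 with p21 OFF and 0.449 ± 0.046 with p21 ON. These ratios did not overlap between the groups, which follows from their choice, since each sets a gene called lower over one that was not, and they are given as a description only. Summed over the 8 genes, the p21 OFF libraries held 4124 to 4761 normalized counts and the p21 ON libraries 3739 to 3810.

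**Figure D3:**
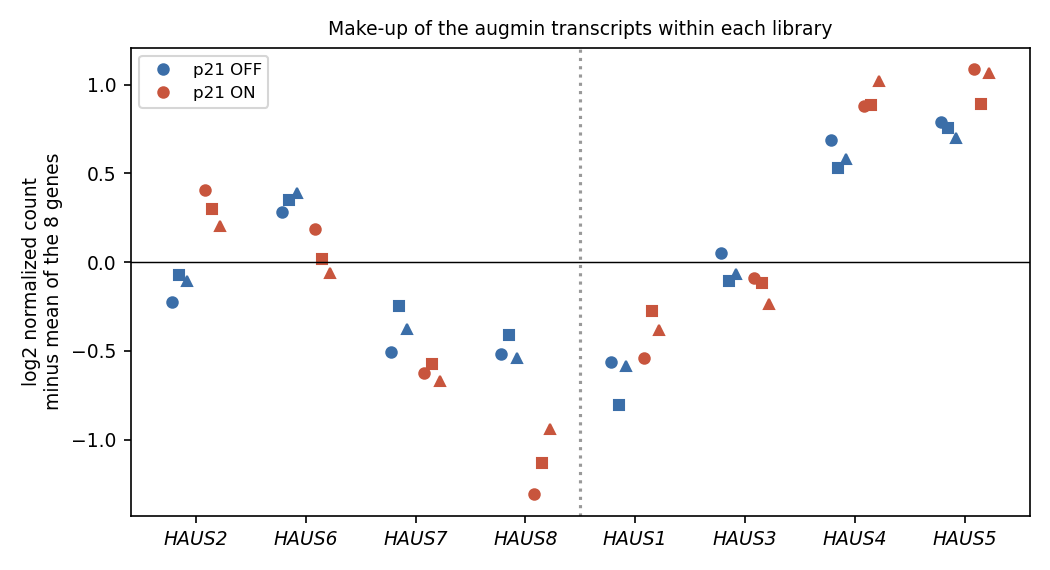
Log2 normalized count of each augmin gene minus the mean of the 8 genes in the same library (y axis), for 3 p21 OFF (blue) and 3 p21 ON (red) libraries, with symbols for replicates 1 (circle), 2 (square) and 3 (triangle). HAUS8 shows the widest separation, from -0.49 on average with p21 OFF to -1.13 with p21 ON, and HAUS3 alone overlaps.

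Levels of different genes were compared per kb of exon, using the union of each gene's annotated exons. With p21 OFF the order of mean levels was HAUS4 at 310 ± 39.9 normalized counts per kb, HAUS5 at 171 ± 16.3, HAUS1 at 157 ± 23.3, HAUS2 at 109 ± 1.63, HAUS7 at 100.4 ± 2.93, HAUS6 at 84.8 ± 3.85, HAUS3 at 71.7 ± 9.21 and HAUS8 at 66.6 ± 3.91 (SD, n = 3 each). The libraries of HAUS5 and HAUS1 overlapped, as did those of HAUS6 and HAUS3 and those of HAUS3 and HAUS8, while other neighbours in the order were separate. With p21 ON the order of mean levels was the same, and HAUS8, at 34.9 ± 4.33 per kb, lay below HAUS3 in every library. Its share of the summed per-kb level went from 6.24% ± 0.38 to 3.61% ± 0.42, and with canonical transcript lengths from 13.9% ± 0.74 to 8.52% ± 0.90. The place of HAUS8 depends on the length: with its canonical transcript of 1407 bases in place of the exon union of 5533 bases, HAUS8 took rank 4 of the 8 genes with p21 OFF and rank 5 with p21 ON. HAUS4 stayed first with either length, and every other gene also changed rank in both groups. Neither length allows for reads lost from exons that HAUS3, HAUS4 and HAUS7 share with other gene models on the same strand. The levels and ranks of these genes may be off for that reason, which was not tested. With p21 OFF, HAUS5 had rank 2 by exon union and rank 5 by canonical length, and HAUS7 had ranks 5 and 3.

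Across the 6 libraries, the genes whose log2 profile was most like that of HAUS8 among those with a mean of at least 100 normalized counts were LOC152217, ZFAND5 and RUVBL2, an AAA+ ATPase of chromatin-remodelling complexes. Their Pearson correlations across libraries were 0.998, 0.998 and 0.997. The points share 2 groups of 3 libraries, and 501 of the 10441 genes compared had a correlation over 0.95 with HAUS8. Their log2 fold changes were -0.35, -0.25 and -0.38, all smaller in size than that of HAUS8.

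The γ-tubulin ring complex, which augmin brings to the microtubule, was followed through 13 genes of the ring and its attachment factors, all of which were tested. Of these, 4 were lower, 2 higher and 7 neither, where 12.7% of all tested genes were lower and 10.5% higher, and the median log2 fold change was -0.13. MZT1, a small protein that binds the ring's scaffold subunits, fell most, from 504.9, 466.3 and 419.1 to 302.7, 324.1 and 250.9 normalized counts, and limma gave -0.67 as the log2 fold change with a standard error of 0.10 (adjusted p = 0.000132). NEDD1, the adaptor between augmin and the ring, had 744.7, 763.2 and 711.1 normalized counts with p21 OFF and 631.0, 655.5 and 589.2 with p21 ON. Its p21 ON values all lay below its p21 OFF values, and limma gave a log2 fold change of -0.24 (adjusted p = 0.0207), but NEDD1 was no longer called under scaling by library size alone, without the filter on low values, or with replicate 2 of p21 OFF, or replicate 1 or 3 of p21 ON, left out. CDK5RAP2, a centrosomal protein that binds the ring, and MZT2B were the other genes called lower, with log2 fold changes of -0.24 and -0.33. Without the filter on low values neither was called, CDK5RAP2 also lost its call with replicate 3 of p21 ON left out, and MZT2B with replicate 1 or 2 of p21 ON left out. TUBG1, the main γ-tubulin gene, was at 2076 ± 97.1 and 2047 ± 117 normalized counts (SD, n = 3 each), with -0.02 as the log2 fold change (95% interval -0.16 to 0.11). The genes called higher were TUBG2, its close paralog, whose reads may be shared with TUBG1, with a log2 fold change of 0.28, and TUBGCP6, with 0.24. With any one of the 3 libraries named for NEDD1 left out, no ring gene was called higher (0), with replicate 3 of p21 OFF left out a single one was, and with replicate 1 or 3 of p21 ON left out the genes called lower became 2. MZT2B shares 519 exon bases with SMPD4 on the opposite strand.

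Among 12 genes of proteins that act with augmin in branching and on the spindle, 8 were lower, 1 higher and 3 neither, where 12.7% of all tested genes were lower and 10.5% higher. Their median log2 fold change was -0.54, against 0.0056 for all tested genes, and the list was drawn up with results of these libraries known, so its count is not independent evidence. PLK1, a mitotic kinase that acts on augmin recruitment, went from 3187, 3448 and 3185 to 1153, 1259 and 1201 normalized counts, and limma gave -1.44 as the log2 fold change with a standard error of 0.06 (adjusted p = 2.07e-11). TPX2, which binds Aurora A and takes part in branching, went from 8324, 8075 and 7947 to 3698, 3677 and 3489 normalized counts, a log2 fold change of -1.16. Both lay without overlap between the groups. TACC3 and AURKA, the gene of Aurora A, had log2 fold changes of -1.24 and -1.32. EML3, described as a recruiter of augmin to microtubules, was the gene called higher, with 0.24 as its log2 fold change (limma adjusted p = 0.0260), and the call was lost on leaving out replicate 2 of p21 OFF or replicate 1 or 3 of p21 ON. CEP192, PCNT and NUMA1 were called in neither direction. In these libraries the log2 fold change of HAUS8, -0.93, lay between that of CKAP5, -0.63, and that of TPX2, and those of HAUS6, HAUS7 and HAUS3 lay between those of CKAP5 and RAN, -0.37.

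**Figure D4:**
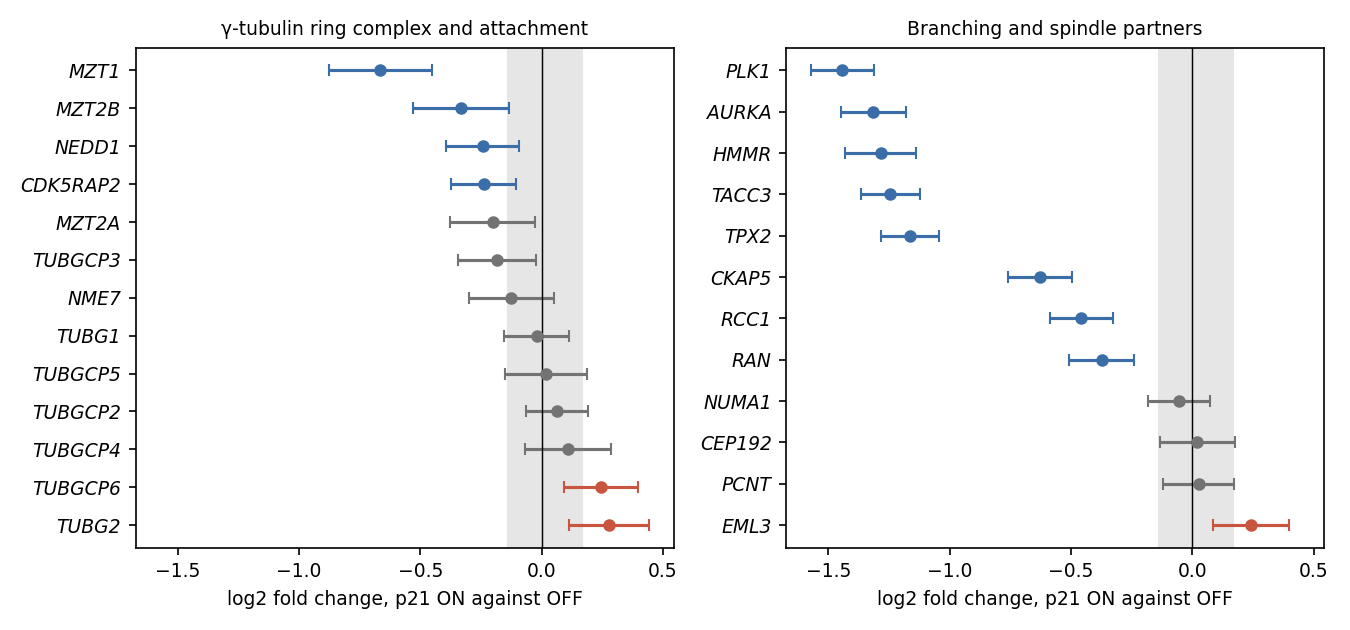
Log2 fold change, p21 ON against p21 OFF (x axis; bars, 95% intervals), of 13 genes of the γ-tubulin ring complex and its attachment (left) and of 12 branching and spindle partners (right), with genes called lower in blue, higher in red and neither in grey, and the interquartile range of all tested genes as a band. MZT1 is lowest on the left at -0.67, and PLK1, AURKA, HMMR, TACC3 and TPX2 lie beyond -1.0 on the right.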

How the data were processed

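The authors prepared stranded mRNA libraries, sequenced single-end reads, mapped them to hg19 with STAR, counted them on gene names with HTSeq and normalized the counts with DESeq2. Versions of these tools, and whether counting used the strand, are not given in the sources used here. The deposited values are therefore normalized counts (unit: signal, never negative). Divided by the smallest step of their library, 100% of them were whole to within 0.01, which gave back the reads. Because the values are normalized, limma 3.58.1 (lmFit, eBayes with trend, R 4.3.3) on log2(normalized count + 1) was the main test, without covariates, over genes averaging 10 or more, and p-values were adjusted by Benjamini-Hochberg (threshold 0.05). Fold changes and 95% intervals are on this scale. Alternatives were limma-voom, edgeR 4.0.16 and DESeq2 1.42.0 fitted to those reads, other scalings, pseudocounts and filters, a threshold of 0.01, a replicate block, and fits that each leave out 1 library. The fits were tested on simulated data. Positions, exons and lengths are from GENCODE release 44 lifted to GRCh37, and promoter windows from RefSeq (GRCh38.p14), placed on GRCh37 by exact match. The genes named are the 8 members, CDKN1A, cell line markers, called partner genes (up to 4 per list, plus NEDD1, TUBG1, TPX2 and PLK1) and the 3 profiles most like the called member with the lowest adjusted p-value. Other partner genes named (TUBGCP6, EML3, CKAP5, RAN, HMMR, CEP192, PCNT, NUMA1) were chosen after their values were seen. The members, lists and motifs were chosen with earlier results of these data known. Some markers of the lists are not reported here.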

Additional observations from a re-analysis of the deposited data

How the results depend on the processing

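HAUS6, HAUS7 and HAUS8 were lower and called in all 17 alternative fits, with log2 fold changes of -0.66 to -0.53, -0.58 to -0.50 and -1.02 to -0.84, and HAUS3 in 16 of 17 (-0.48 to -0.31). Without the filter on low values HAUS3 kept its log2 fold change of -0.41 and lost its call, no ring gene was called in either direction (0 and 0), no partner gene was called higher (0), and all tested genes gave 254 higher and 503 lower. The cause was not tested. With an adjusted p-value under 0.01, the ring genes gave 0 higher and 1 lower, the partner genes 0 higher, and all genes 616 higher and 882 lower. HAUS1, HAUS2, HAUS4 and HAUS5 were called in none of the fits. HAUS5 changed sign under scaling by library size alone (0.0098), which gave 2033 genes higher and 1194 lower in all, against 1393 and 1681. On leaving out single libraries, the log2 fold change ranged from -0.17 to 0.0499 for HAUS1, from -0.0477 to 0.13 for HAUS4 and from -0.0734 to 0.0435 for HAUS5. The median of the 8 genes then ranged from -0.32 (without p21 OFF replicate 2) to -0.13 (without p21 OFF replicate 1). Ring genes called higher ranged from 0 to 2 and lower from 2 to 5, and partner genes called higher from 0 to 1. All genes called higher ranged from 692 (without p21 ON replicate 1) to 1488 and lower from 888 (without p21 ON replicate 1) to 1662, with 739 and 1076 without p21 ON replicate 3.

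Whether the replicate numbers pair the samples is not given in the sources used here. Deviations of same-numbered libraries had correlations of -0.06, -0.02 and -0.05, which cannot show how the cultures were set up. With a replicate block in the fit there were 1407 genes higher and 1513 lower, with 4 augmin genes lower and 0 higher. With the length of the canonical transcript in place of all exons, the p21 OFF levels per kb were 496 for HAUS4, 310 for HAUS1, 305 for HAUS7, 262 for HAUS8, 201 for HAUS5, 120 for HAUS2, 103 for HAUS6 and 85.9 for HAUS3. For HAUS1, HAUS2, HAUS4 and HAUS5, changes inside the 95% intervals remain compatible with these libraries. How far depth or replicate spread sets the width of the intervals was not tested.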
